A study of Mus musculus with 12 samples.

Results

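The transcripts of 47 DNA replication genes were followed in cultured leukemia cells of the mouse, of the pre-B acute lymphoblastic kind that arises from early B-lineage cells, in which Phf6 had been lowered or disrupted. PHF6 is an X-linked chromatin protein of the nucleus and nucleolus, and the series asks what it does for B-cell identity. The genes were taken by symbol, from origin recognition to deoxynucleotide supply, and all 47 were among the 23224 genes of the deposited table and among the 12335 that passed the filter on low counts. Every library came from cells of C57BL/6J origin that are null for p19 (the Cdkn2a product read in the alternative frame) and were transformed by the BCR-ABL1 kinase fusion. The groups, each with 3 libraries, were KD (a short hairpin RNA against Phf6), KO_sg1 and KO_sg4 (labelled Phf6 null, made with 1 of 2 single guide RNAs) and WT (Phf6 wild type). The labels give no control hairpin or control guide for WT, do not say whether a KO group is 1 clone, and do not state that replicates are separate cultures. The p-values therefore reflect only how far these libraries differ among themselves, and that spread may be technical. KO without a guide number means both guides with equal weight. RNA was measured by bulk sequencing of mRNA libraries. Levels are CPM, counts relative to library size, scaled by the trimmed mean of M values (TMM). Log2 fold changes are given ± their standard error with a Benjamini-Hochberg adjusted p from edgeR's quasi-likelihood test over all 12335 genes, and a gene was called at an adjusted p below 0.05.

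DNA replication begins when the origin recognition complex, with CDC6 and CDT1, loads the ring of MCM2 to MCM7 onto DNA in G1 phase, a step that geminin blocks afterwards. In S phase the kinase CDC7 with DBF4 turns the loaded ring into an active helicase with CDC45 and the GINS complex. Polymerase alpha-primase then lays primers, the clamp loader RFC places the sliding clamp PCNA, polymerases delta and epsilon copy the strands, and FEN1 and LIG1 join the lagging-strand pieces. Many of these genes are targets of E2F transcription factors and are transcribed most in cycling cells, so leukemia cells in culture generally express the whole set. In bulk RNA, fewer cells in a given phase and less RNA per cell cannot be told apart.

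Library totals ran from 20382328 to 36032369 estimated counts, and no 2 replicates agreed within counting noise (chi-square over its degrees of freedom 3.35 to 64.1 in 12 pairs). Phf6 itself was lower in KD (log2 fold change -1.97) and KO_sg1 (-3.35) but not in KO_sg4 (0.09, adjusted p = 0.527). A guide-made disruption need not lower the transcript, so this level does not check the KO_sg4 label. The 4 Y-linked genes summed to 100.4 to 105 CPM in KD, at most 0.144 CPM in KO and 76.5 to 88.3 CPM in WT, so that the loss of Phf6 and another origin of the KO cells cannot be told apart. All 10 pre-B markers were above 1 CPM in every group, and their sum was 15020 to 15575 CPM in KD, 5140 to 6861 CPM in KO and 6455 to 6860 CPM in WT. In KD against WT, 6 of the 10 were higher and 2 lower, Blnk among these at 82.5 CPM in KD and 141 CPM in WT, and Ebf1 and Pax5 were not called. The 8 myeloid markers summed to 87.7 to 90.5 CPM in KD, 5.18 to 8.72 CPM in KO and 28.2 to 29.0 CPM in WT, with 4 of the 8 above 1 CPM in KD and in WT and Elane at 0 in KD. Each of the 7 T-cell markers averaged under 1 CPM in every group, and the 6 erythroid and megakaryocyte markers summed to at most 5.82 CPM and the 6 stromal and epithelial markers to at most 2.06 CPM in any library. The part of these shifts in the results below was not tested. KO_sg4 replicate 1 lay apart from the other KO_sg4 libraries for several members, and counts are given with and without it. That choice rests on the members' own values. Over all genes, KO_sg4 replicate 2 was the farther apart. Its chi-square over degrees of freedom was 64.1 with replicate 1 and 63.3 with replicate 3, against 42.6 between replicates 1 and 3.

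In KD the replication genes as a group were lower than in WT, and in KO most were slightly higher. Of the 47 members, 39 were lower and 2 higher in KD than in WT, and the median log2 fold change was -0.71, against -0.01 over all 12335 genes. KD changed most of the transcriptome: 77.6% of all genes were called, 40.4% lower and 37.1% higher. In KO, 28 members were higher and 3 lower than in WT with a median of 0.17, while 41.5% of all genes were called, 17.7% higher and 23.8% lower, with a median of -0.01. The call was kept under all 23 alternative settings for 36 of the 41 members called in KD and for 22 of the 31 called in KO. The changes in KO were small, and no member changed by 2-fold, whereas 5 members fell by more than 2-fold in KD. The KD and KO comparisons share the WT libraries. Added over the members, the level was 4382 to 4430 CPM in KD, 7536 to 7879 CPM in KO_sg1, 7556 to 8135 CPM in KO_sg4 and 6903 to 6969 CPM in WT, and the KD and WT ranges did not overlap. All 3 KD libraries lay below all 3 WT libraries for 40 members and above for 2, where all genes gave 43.7% below and 40.8% above.

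**Figure D1:**
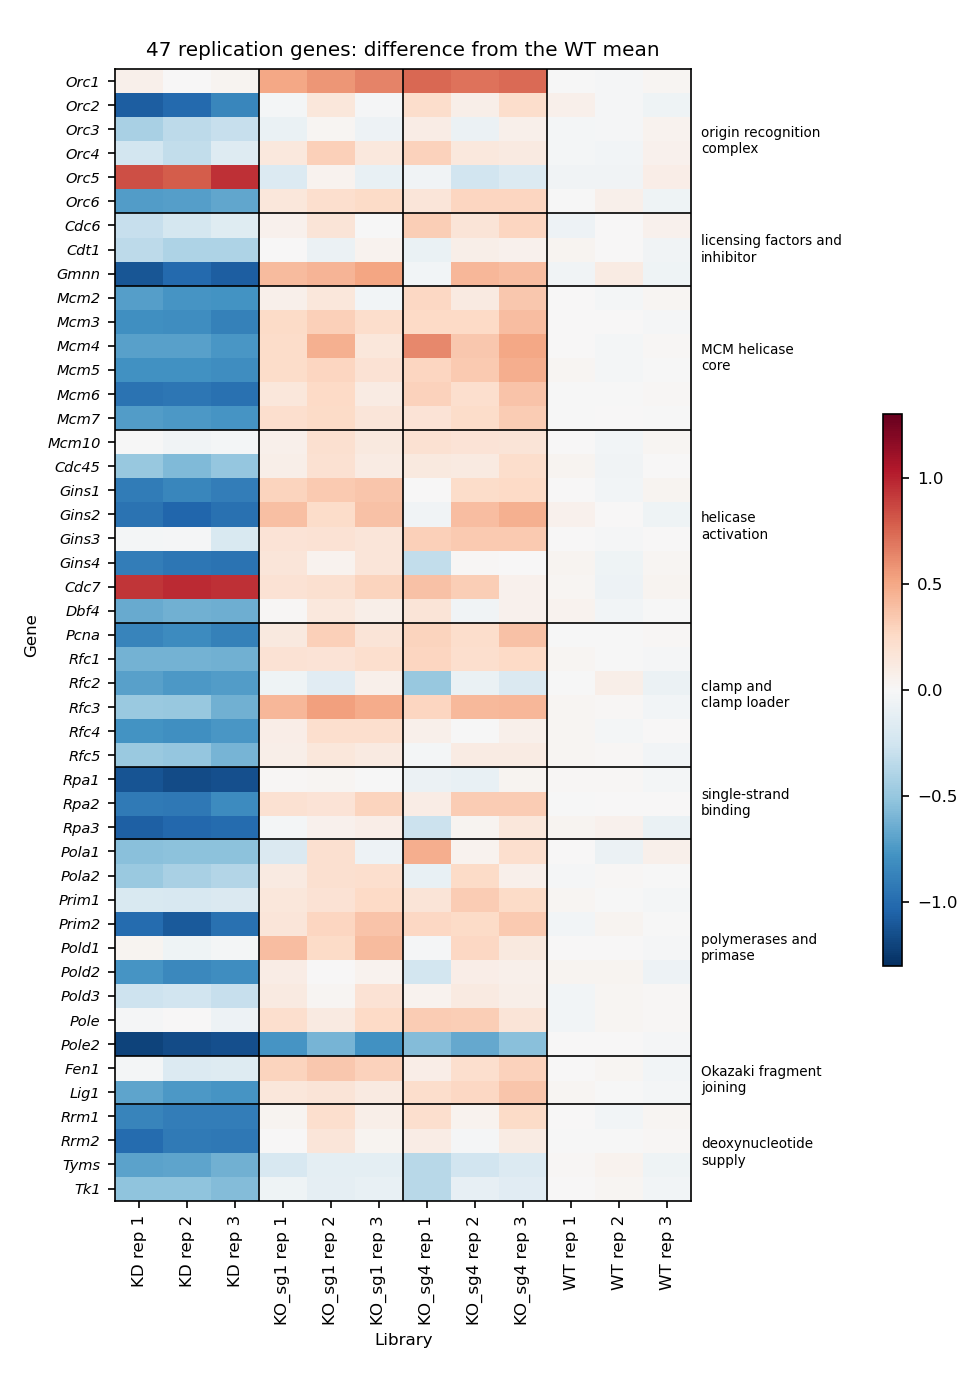
Each row is 1 of the 47 replication genes, grouped by role, and each column 1 library of KD, KO_sg1, KO_sg4 or WT; the colour is log2(CPM + 0.5) minus the mean of the WT libraries. The KD columns are blue for most genes with Orc5 and Cdc7 in red, the KO columns are mostly pale red, and Pole2 is blue in all KD and KO columns.

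By guide, with WT shared by both comparisons, the counts were as follows. With KO_sg1, 25 members were higher and 2 lower than in WT (median 0.17), where 38.8% of all genes were called, 16.9% higher and 21.9% lower. With KO_sg4, 25 were higher and 4 lower (median 0.19), where 39.9% of all genes were called, 17.9% higher and 22% lower. Without KO_sg4 replicate 1 these counts were 28 higher and 4 lower for KO_sg4, where 20.4% of all genes were higher and 23.2% lower. For both guides together they were 31 higher and 3 lower, where 23.7% of all genes were higher and 27.6% lower. Of the calls by guide, 8 of the 27 in KO_sg1 and 20 of the 29 in KO_sg4 were kept under all 23 alternative settings, with 15 of the KO_sg1 calls lost under library totals. Set directly against each other, KO_sg4 and KO_sg1 differed in 3 members, 2 higher (Mcm2 and Lig1) and 1 lower (Pold1) in KO_sg4, while 27.2% of all genes were called, 13.7% higher and 13.4% lower. Without KO_sg4 replicate 1, 2 were called higher and 0 lower, where 10.3% of all genes were higher and 11.3% lower. Without KO_sg4 replicate 2 the counts were 8 and 7, where 21.5% of all genes were higher and 20.9% lower, so the calls of members and of all genes both changed with that library. Each of the 3 calls was lost under at least 7 of 23 alternative settings. In KD against KO, all 47 members were called, 45 lower and 2 higher (median -0.82), where 83.3% of all genes were called, 40.3% lower and 42.9% higher.

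The scaling of the libraries moved some of these counts. Scaled by library totals in place of TMM, 34 members were lower and 6 higher in KD than in WT. The median of all genes was then 0.21, with 45.3% of all genes higher and 30.6% lower. The 6 higher members were Orc5 and Cdc7 with Orc1 (0.25), Pold1 (0.21), Mcm10 (0.19) and Pole (0.19). A change of scaling moves all genes of a comparison by nearly the same amount. The members' median, 0.70 below the all-gene median under either scaling, could therefore hardly differ and does not test the scaling. Under library totals KO_sg1 had 10 members higher and 3 lower than WT. Of all genes, 10.7% were then higher and 25% lower, and their median was -0.10. KO_sg4 against KO_sg1 had 17 members higher and 0 lower. Here 23% of all genes were higher and 8.54% lower, and their median was 0.13. For the same reason the members' median relative to all genes stayed at 0.19 in KO_sg1 against WT under both scalings.

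**Figure D2:**
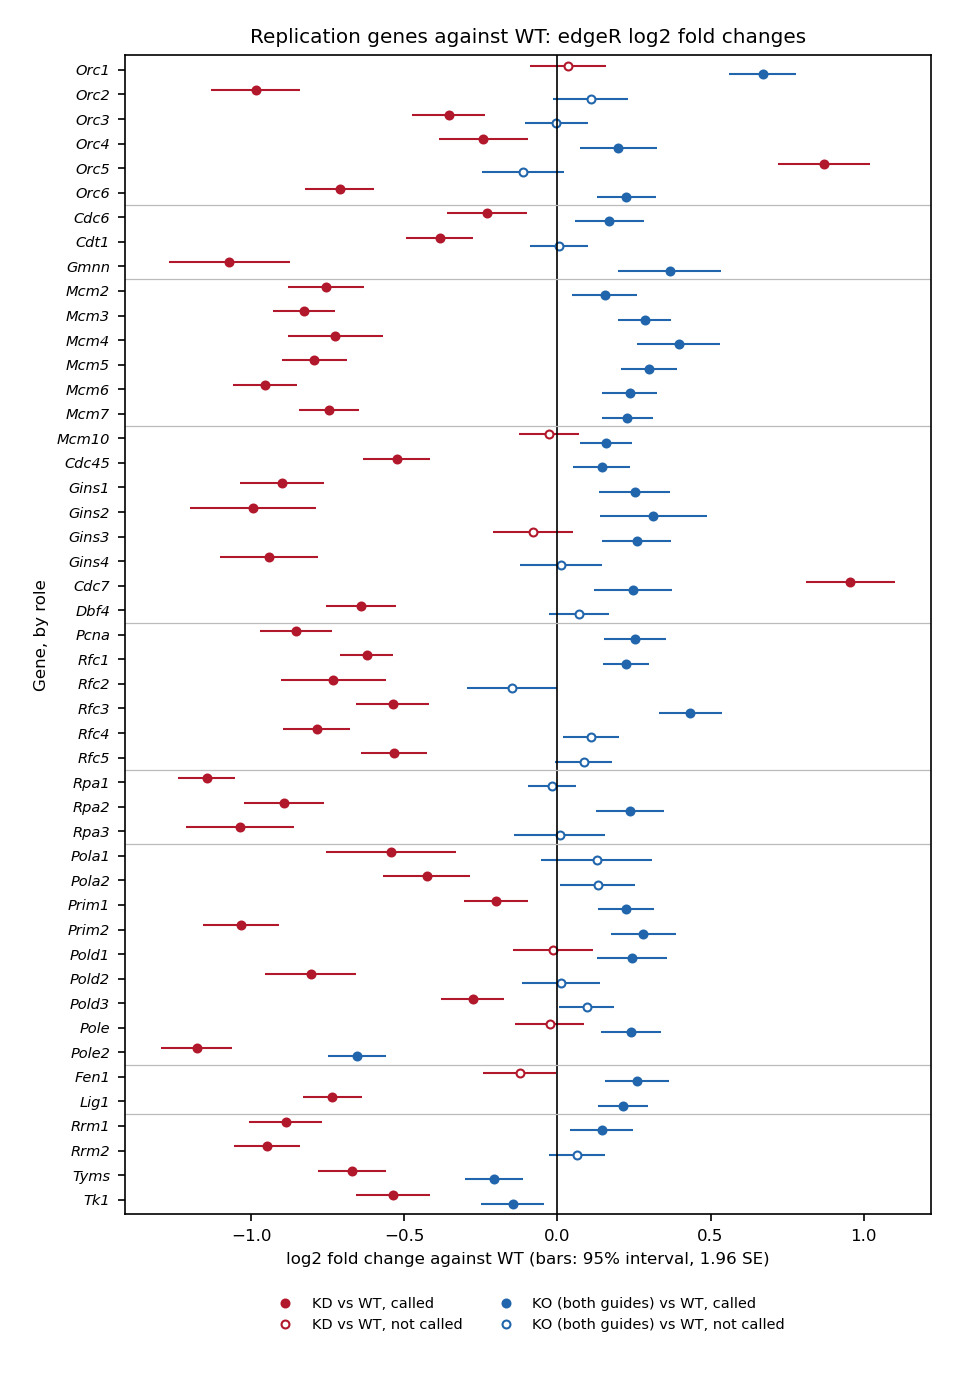
Log2 fold change of each replication gene in KD against WT (red) and in KO, both guides, against WT (blue), with 95% intervals; filled points were called. Red points lie mostly between -0.2 and -1.2 and blue points mostly between 0 and 0.5, with Orc5 and Cdc7 at 0.87 and 0.96 in KD and Pole2 at -0.65 in KO.

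RefSeq promoter windows (GRCm38.p6, from 250 bases before to 50 after a start site) were matched for 39 of the 47 members. The counts themselves were made on another build, mm9. The windows serve to show sequence and to count letters, and whether the letters bear on the changes was not tested. Letters of the E2F type (TTTCCCGC, TTTGGCGC, TTTCGCGC or TTTGCCGC, on either strand, overlaps allowed) occurred in 15 of the 39 (38.5%) and in 2.61% of 27025 genes with a window. This background takes in every gene with a window and was not cut to the genes tested here, unlike the members. The letters CCAAT, on either strand, occurred in 23 of 39 (59.0%) and in 41.1% of all genes, and TTTGAA in 7 of 39 (17.9%) and in 20.2% of all genes. Of the 15 members with the E2F-type letters, 12 were lower in KD and 10 higher in KO, with median log2 fold changes of -0.54 in KD and 0.23 in KO. Of the 24 without, 20 were lower in KD and 12 higher in KO, with medians of -0.66 and 0.14. For CCAAT, 20 of the 23 members with it were lower in KD and 17 higher in KO (medians -0.76 and 0.22). Among the 16 without CCAAT, 12 were lower in KD and 5 higher in KO (medians -0.41 and 0.09). For TTTGAA, 4 of the 7 with it were lower in KD and 5 higher in KO (medians -0.53 and 0.15). Among the 32 without TTTGAA, 28 were lower in KD and 17 higher in KO (medians -0.65 and 0.15). None of these splits was tested. Windows of 6 genes are shown for their letters or their place in the results. Mcm6 and Rfc3 carry several matches and were lower in KD and higher in KO, Orc1 was the highest in KO, Pole2 was the lowest in both, and Cdc7 and Orc5, which have no match here, were the members higher in KD. Capitals mark the E2F-type letters.
Mcm6 (chr1:128359656-128359955, minus strand): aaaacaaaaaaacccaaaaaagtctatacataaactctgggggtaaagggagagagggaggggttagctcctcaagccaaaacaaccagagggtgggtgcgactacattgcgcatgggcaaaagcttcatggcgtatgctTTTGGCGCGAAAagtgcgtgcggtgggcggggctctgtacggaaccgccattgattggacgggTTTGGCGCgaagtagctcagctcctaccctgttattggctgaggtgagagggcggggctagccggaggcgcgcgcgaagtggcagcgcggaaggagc
Rfc3 (chr5:151651159-151651458, minus strand): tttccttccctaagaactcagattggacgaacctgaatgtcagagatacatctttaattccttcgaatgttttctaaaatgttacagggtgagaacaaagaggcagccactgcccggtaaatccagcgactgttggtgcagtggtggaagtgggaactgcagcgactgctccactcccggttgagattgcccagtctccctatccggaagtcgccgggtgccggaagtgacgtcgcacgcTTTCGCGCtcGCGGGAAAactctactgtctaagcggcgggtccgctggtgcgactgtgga
Orc1 (chr4:108579204-108579503, plus strand): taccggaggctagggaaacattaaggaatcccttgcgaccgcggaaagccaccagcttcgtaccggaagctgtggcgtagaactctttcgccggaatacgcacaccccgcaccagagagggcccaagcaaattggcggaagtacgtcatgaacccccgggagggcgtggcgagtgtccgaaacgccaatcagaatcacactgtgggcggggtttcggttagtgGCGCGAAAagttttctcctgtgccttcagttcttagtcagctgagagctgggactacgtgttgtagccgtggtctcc
Pole2 (chr12:69228141-69228440, minus strand): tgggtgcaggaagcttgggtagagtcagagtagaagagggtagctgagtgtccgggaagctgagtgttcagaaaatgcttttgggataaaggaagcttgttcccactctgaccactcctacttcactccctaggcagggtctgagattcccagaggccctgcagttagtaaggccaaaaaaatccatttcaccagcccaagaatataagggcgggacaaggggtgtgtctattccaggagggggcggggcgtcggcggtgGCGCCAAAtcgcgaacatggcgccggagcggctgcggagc
Cdc7 (chr5:106964072-106964371, plus strand): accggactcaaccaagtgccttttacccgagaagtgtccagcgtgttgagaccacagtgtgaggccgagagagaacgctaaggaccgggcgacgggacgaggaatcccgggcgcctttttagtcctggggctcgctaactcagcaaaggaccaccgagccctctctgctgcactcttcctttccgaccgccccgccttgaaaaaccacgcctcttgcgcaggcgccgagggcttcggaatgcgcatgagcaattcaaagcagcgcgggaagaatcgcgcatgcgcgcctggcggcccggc
Orc5 (chr5:22550289-22550588, minus strand): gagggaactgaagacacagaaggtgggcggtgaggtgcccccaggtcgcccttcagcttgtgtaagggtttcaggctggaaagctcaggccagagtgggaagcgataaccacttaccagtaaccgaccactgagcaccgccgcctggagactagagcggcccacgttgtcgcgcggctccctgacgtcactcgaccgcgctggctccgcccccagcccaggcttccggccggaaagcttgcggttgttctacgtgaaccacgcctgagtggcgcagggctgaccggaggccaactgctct
The Mcm6 window holds 3 matches, of which 2 overlap, whose first bases lie at -110, -106 and -47 from the start site, and Rfc3 holds 2, at -10 and 1. The single matches of Orc1 and Pole2 lie at -27 and 11. Cdc7 has 2 annotated windows, neither with a match, and the one farther upstream is shown.

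The 6 genes of the origin recognition complex, which marks where replication can start, did not move together. In KD, 4 were lower (Orc2, Orc3, Orc4 and Orc6), Orc5 was higher and Orc1 was not called. In KO, 3 were higher (Orc1, Orc4 and Orc6) and none lower. Orc1 encodes the subunit that is degraded in S phase in human cells, and it measured 15.1, 14.5 and 14.8 CPM in the KD libraries, 20.7, 21.8 and 22.9 CPM in KO_sg1, 24.6, 24.0 and 24.5 CPM in KO_sg4 and 14.4, 14.4 and 14.7 CPM in WT. Its KO libraries all lay above the WT libraries, while KD and WT overlapped. The log2 fold change of Orc1 was 0.67 ± 0.06 (adjusted p = 1.95e-07) in KO, the highest of all members, and 0.03 ± 0.06 (adjusted p = 0.633) in KD. Orc5, another subunit of the complex, had 52.4, 50.7 and 56.6 CPM in the KD libraries, 25.7, 30.2 and 27.2 CPM in KO_sg1, 28.2, 24.5 and 25.7 CPM in KO_sg4 and 28.2, 28.3 and 31.0 CPM in WT. The KD libraries stood above every other library, and the KO and WT ranges overlapped. For Orc5 the change was 0.87 ± 0.08 (adjusted p = 1.02e-07) in KD and -0.11 ± 0.07 (adjusted p = 0.206) in KO. Orc2 was lower in KD, with 35.2, 36.6 and 41.0 CPM in the KD libraries, 73.0, 82.4 and 73.4 CPM in KO_sg1, 87.4, 78.2 and 87.0 CPM in KO_sg4 and 78.1, 73.7 and 71.5 CPM in WT. Each KD library was lower than each WT library, with a change of -0.99 ± 0.07 (adjusted p = 1.89e-08), and KO overlapped WT (0.11, adjusted p = 0.191). In KD the other subunits changed by -0.36 (Orc3), -0.24 (Orc4) and -0.71 (Orc6) on the log2 scale, of which the calls of Orc3 and Orc4 were lost under library totals, at -0.14 and -0.02. The KD call of Orc4 was also lost under the stricter filter and without KD replicate 2 or WT replicate 3. In KO the values were 0.20 for Orc4 and 0.22 for Orc6, both called, and -0.005 for Orc3, not called. The KO call of Orc4 was lost under library totals and without WT replicate 1 or 2.

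Among the licensing factors, the gene of the inhibitor had the largest change. All 3 genes of this role were lower in KD, and Cdc6 and Gmnn were higher in KO. Gmnn, which encodes geminin, measured 44.6, 47.8 and 45.7 CPM in the KD libraries, 128, 131 and 138 CPM in KO_sg1, 94.2, 131 and 127 CPM in KO_sg4 and 93.6, 104 and 92.8 CPM in WT. The KD libraries were the lowest, all KO_sg1 libraries exceeded WT, and KO_sg4 replicate 1 fell within the WT range. The log2 fold change of Gmnn was -1.07 ± 0.10 (adjusted p = 2.12e-07) in KD and 0.37 ± 0.09 (adjusted p = 0.00349) in KO, and without KO_sg4 replicate 1 it was 0.44 in KO. Its calls in KO and KO_sg1 were kept under all 23 alternative settings. The Gmnn call in KO_sg4 was lost with limma and with only the groups compared. It was also lost without WT replicate 1 or 3 or KO_sg4 replicate 2 or 3. Cdc6 changed by -0.23 in KD and 0.17 in KO, both called, though neither call was stable. The call in KD was lost under library totals (-0.01), under the stricter filter and without KD replicate 1, and that in KO under library totals, under the replicate block and without WT replicate 1, WT replicate 2 or KO_sg1 replicate 2. Cdt1, which carries the MCM ring to origins, changed by -0.38 in KD and was not called in KO (0.01).

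The MCM2 to MCM7 genes, which encode the 6 subunits of the replicative helicase ring, moved together within each comparison. All 6 were lower in KD, with log2 fold changes from -0.96 to -0.73, and all 6 were higher in KO, from 0.15 to 0.40. By guide, all 6 were called higher in KO_sg4 and 5 in KO_sg1, where Mcm2 was not called (0.06). Under library totals the KO_sg1 calls of Mcm4, Mcm5, Mcm6 and Mcm7 were lost. The KO calls of Mcm3 to Mcm7 were kept under all 23 alternative settings. Mcm6 had the largest change in KD, with 162, 164 and 160.5 CPM in the KD libraries, 348, 377 and 338 CPM in KO_sg1, 387, 365 and 406 CPM in KO_sg4 and 312, 313 and 318 CPM in WT. The KD libraries were the lowest, and all KO libraries lay above WT. The change of Mcm6 was -0.96 ± 0.05 (adjusted p = 9.35e-10) in KD and 0.24 ± 0.05 (adjusted p = 8.96e-04) in KO. Mcm4 had the largest change in KO, with 94.6, 94.9 and 91.8 CPM in the KD libraries, 184, 214 and 171 CPM in KO_sg1, 239, 198 and 220.1 CPM in KO_sg4 and 156, 153 and 157 CPM in WT. The 4 groups did not overlap except for the guides, and the change of Mcm4 was 0.40 ± 0.07 (adjusted p = 3.29e-04) in KO and -0.73 ± 0.08 (adjusted p = 1.02e-06) in KD. Mcm5 measured 179, 179 and 177 CPM in the KD libraries, 364, 375 and 351 CPM in KO_sg1, 374, 390.4 and 430.05 CPM in KO_sg4 and 315, 305 and 308 CPM in WT. Here too KD lay wholly below and KO wholly above WT, with 0.30 ± 0.05 (adjusted p = 1.31e-04) in KO and -0.79 ± 0.05 (adjusted p = 6.50e-09) in KD. Mcm2 was the only MCM gene called between the guides, with 177, 172 and 169.9 CPM in the KD libraries, 305, 324 and 284 CPM in KO_sg1, 351, 317 and 373 CPM in KO_sg4 and 294, 286 and 297 CPM in WT. KO_sg1 overlapped both WT and KO_sg4, and the difference of KO_sg4 from KO_sg1 was 0.19 ± 0.06 (adjusted p = 0.039). All 6 MCM genes lay above 0 in this comparison, up to 0.21, so Mcm2 did not have the largest difference. Its call between the guides was lost with no filter, with DESeq2, under the replicate block and in 10 fits that each left out 1 library, among others. Mcm2 was lower in KD (-0.76) and higher in KO (0.15, adjusted p = 0.0358), a call lost in 9 of 23 alternative settings. Mcm3 changed by -0.83 in KD and 0.28 in KO, and Mcm7 by -0.75 and 0.23 in the same order.

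The 8 genes that turn the loaded ring into a moving helicase did not all move one way in KD. Of them, 5 were lower in KD, 1 higher and 2 not called, while in KO 6 were higher and none lower. Gins2, a GINS subunit, had 37.7, 35.7 and 37.5 CPM in the KD libraries, 96.6, 87.2 and 96.3 CPM in KO_sg1, 71.2, 97.2 and 102 CPM in KO_sg4 and 76.3, 74.0 and 70.8 CPM in WT. All KD libraries were below WT, and the KO libraries lay above WT except KO_sg4 replicate 1. The change of Gins2 was -0.995 ± 0.10 (adjusted p = 7.15e-07) in KD and 0.31 ± 0.09 (adjusted p = 0.012) in KO, and 0.39 in KO without that library. Its KO call was kept under all 23 alternative settings, but the calls by guide were not. That in KO_sg4 was lost with limma, with only the groups compared and under the replicate block. It was also lost without any 1 WT library, KO_sg1 replicate 1 or KO_sg4 replicate 2 or 3. That in KO_sg1 was lost without WT replicate 3 or KO_sg1 replicate 1 or 3. In KD, Gins1 (-0.90) and Gins4 (-0.94) were also lower, but Gins3 was not called (-0.08). In KO, Gins1 (0.25) and Gins3 (0.26) were higher and Gins4 was not called (0.01). Cdc7, the kinase that fires origins, measured 78.6, 80.9 and 79.8 CPM in the KD libraries, 46.9, 47.7 and 50.3 CPM in KO_sg1, 53.5, 51.5 and 42.9 CPM in KO_sg4 and 41.9, 39.2 and 42.3 CPM in WT. The KD libraries stood far above the rest, and the KO libraries lay just above WT. The change of Cdc7 was 0.96 ± 0.07 (adjusted p = 2.58e-08) in KD and 0.25 ± 0.07 (adjusted p = 0.00774) in KO, where the call was lost without WT replicate 2. Its activator Dbf4 was lower in KD (-0.64) and not called in KO (0.07). Cdc45, a helicase cofactor, changed by -0.53 in KD and 0.14 in KO, the call in KO being lost under library totals, under the replicate block and without WT replicate 2, WT replicate 3 or KO_sg1 replicate 2. Mcm10, which helps start the helicase, was not called in KD (-0.03) and was higher in KO (0.16), a call lost under library totals and without WT replicate 2.

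Pcna and the 5 Rfc genes were all lower in KD, from -0.85 to -0.53, and 3 of the 6 were higher in KO. Pcna, the sliding clamp, had 323, 333 and 321 CPM in the KD libraries, 639.95, 731 and 660.5 CPM in KO_sg1, 719, 687 and 767 CPM in KO_sg4 and 586, 584 and 594 CPM in WT. KD and WT were far apart, and all KO libraries lay above WT. The change of Pcna was -0.85 ± 0.06 (adjusted p = 8.93e-09) in KD and 0.25 ± 0.05 (adjusted p = 0.00128) in KO. Rfc3, a small subunit of the clamp loader, measured 46.5, 46.3 and 42.1 CPM in the KD libraries, 88.3, 94.6 and 91.2 CPM in KO_sg1, 79.3, 87.8 and 88.2 CPM in KO_sg4 and 66.5, 65.7 and 63.5 CPM in WT. The order KD, WT, KO held for every library, with 0.43 ± 0.05 (adjusted p = 1.11e-05) in KO and -0.54 ± 0.06 (adjusted p = 1.45e-06) in KD. Rfc1, the large subunit, changed by -0.62 in KD and 0.22 in KO. The remaining loader genes fell in KD by 0.73 (Rfc2), 0.79 (Rfc4) and 0.53 (Rfc5) on the log2 scale. In KO they were not called, at -0.15, 0.11 and 0.09 in the same order, though under library totals Rfc2 was called lower (-0.18). By guide, Rfc2 was called lower in KO_sg4 (-0.25) and Rfc4 higher in KO_sg1 (0.18). Both calls were lost in several alternative settings, among them the fit with length and GC trends removed.

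The 3 subunits of RPA, which coats single-stranded DNA, had the lowest median of any role in KD, -1.04. Rpa1, the largest subunit, measured 113, 109.6 and 112 CPM in the KD libraries, 249, 251 and 246 CPM in KO_sg1, 235, 230.3 and 253 CPM in KO_sg4 and 249, 249 and 242 CPM in WT. KD was under every other library, while KO and WT overlapped. The change of Rpa1 was -1.15 ± 0.05 (adjusted p = 6.43e-11) in KD and -0.02 ± 0.04 (adjusted p = 0.76) in KO. Rpa3, the smallest subunit, had 36.9, 37.9 and 38.4 CPM in the KD libraries, 76.0, 80.6 and 82.2 CPM in KO_sg1, 63.6, 79.4 and 85.8 CPM in KO_sg4 and 79.4, 80.3 and 72.7 CPM in WT. The KD libraries were the lowest and KO overlapped WT, with -1.04 ± 0.09 (adjusted p = 8.76e-08) in KD and 0.01 ± 0.08 (adjusted p = 0.953) in KO. Rpa2 was the subunit called in KO, with 59.5, 58.8 and 63.5 CPM in the KD libraries, 129, 127 and 138 CPM in KO_sg1, 120.01, 142 and 141 CPM in KO_sg4 and 112, 113 and 113 CPM in WT. All KO libraries were above WT, with 0.24 ± 0.06 (adjusted p = 0.00396) in KO and -0.89 ± 0.07 (adjusted p = 1.66e-08) in KD.

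Among the 9 polymerase and primase genes, the largest decrease was that of an accessory subunit. Of the 9, 7 were lower and none higher in KD, and 4 were higher and 1 lower in KO. Pole2, the second subunit of polymerase epsilon, had the largest decrease of all members in KD and in KO, with 55.1, 56.9 and 57.5 CPM in the KD libraries, 74.7, 84.2 and 74.1 CPM in KO_sg1, 86.1, 80.5 and 87.6 CPM in KO_sg4 and 128, 129 and 126 CPM in WT. The groups were ordered KD, KO, WT without overlap. Its change was -1.18 ± 0.06 (adjusted p = 2.85e-10) in KD and -0.65 ± 0.05 (adjusted p = 6.26e-08) in KO. Pole, the catalytic subunit of the same enzyme, was not called in KD (-0.03) and was higher in KO (0.24). In RefSeq the gene body of Pole2 overlaps that of Klhdc1, and no strand setting of the counting is given, so reads of the overlap may be split between them. In all, 13 of the 47 members overlap another coding gene in this way, Orc1, Mcm7, Gins2, Rpa1, Fen1, Lig1 and Tk1 among them. Only gene bodies were compared and shared exons were not checked, so their counts may carry the same uncertainty.

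Pold1, the catalytic subunit of polymerase delta, measured 293, 274 and 279 CPM in the KD libraries, 376, 339.7 and 379 CPM in KO_sg1, 282, 344 and 312 CPM in KO_sg4 and 286, 287 and 282 CPM in WT. KD overlapped WT and the KO libraries lay above it except KO_sg4 replicate 1, with -0.01 ± 0.07 (adjusted p = 0.856) in KD and 0.24 ± 0.06 (adjusted p = 0.00412) in KO. Pold1 was lower in KO_sg4 than in KO_sg1, at -0.22 ± 0.07 (adjusted p = 0.025), with overlapping libraries. Its accessory subunit Pold2 was lower in KD (-0.81) and not called in KO (0.01), and Pold3 changed by -0.28 in KD and was not called in KO (0.10). The KD call of Pold3 was lost under library totals (-0.06) and with length, GC and hydropathy trends removed. Prim2, the large subunit of primase, had 27.5, 25.8 and 28.0 CPM in the KD libraries, 62.2, 67.6 and 71.7 CPM in KO_sg1, 67.2, 65.9 and 70.4 CPM in KO_sg4 and 54.2, 57.1 and 55.3 CPM in WT. KD lay lowest and KO wholly above WT, with -1.03 ± 0.06 (adjusted p = 2.25e-09) in KD and 0.28 ± 0.05 (adjusted p = 7.11e-04) in KO. Prim1, the subunit that makes the primer, changed by -0.20 in KD, a sign that turned to 0.02 under library totals and to 0.16 once length and GC trends were removed, and by 0.22 in KO. Pola1, the catalytic subunit of polymerase alpha, and Pola2 were lower in KD (-0.54 and -0.43) and not called in KO (0.13 and 0.13).

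Both genes that finish lagging-strand pieces were higher in KO, and 1 of them was lower in KD. Lig1, the ligase that seals them, had 143, 137 and 135 CPM in the KD libraries, 255, 258 and 249 CPM in KO_sg1, 269, 277 and 295 CPM in KO_sg4 and 235, 229.6 and 226 CPM in WT. KD was below WT and both KO groups above it, with -0.73 ± 0.05 (adjusted p = 5.09e-09) in KD and 0.21 ± 0.04 (adjusted p = 9.24e-04) in KO. Lig1 was higher in KO_sg4 than in KO_sg1 by 0.14 ± 0.05 (adjusted p = 0.042), with no overlap between the guides. Fen1, the nuclease that trims the flaps, measured 146, 132 and 133 CPM in the KD libraries, 183, 191 and 184 CPM in KO_sg1, 158, 173 and 184 CPM in KO_sg4 and 149.9, 152 and 146 CPM in WT. KD overlapped WT while every KO library lay above it, with -0.12 ± 0.06 (adjusted p = 0.0796) in KD and 0.26 ± 0.05 (adjusted p = 0.00126) in KO.

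The 4 genes of deoxynucleotide supply were all lower in KD, and this was the role with the lowest median in KO, -0.04. Rrm2, the S-phase subunit of ribonucleotide reductase, had 198, 209 and 207 CPM in the KD libraries, 397, 442 and 404 CPM in KO_sg1, 423, 391 and 426 CPM in KO_sg4 and 393, 394 and 399 CPM in WT. KD stood apart below, and KO and WT overlapped, with -0.95 ± 0.05 (adjusted p = 1.17e-09) in KD and 0.07 ± 0.05 (adjusted p = 0.291) in KO. Rrm1, its large subunit, changed by -0.89 in KD and 0.14 in KO (adjusted p = 0.0405). Tyms, thymidylate synthase, measured 118, 119 and 125 CPM in the KD libraries, 166, 176 and 177 CPM in KO_sg1, 150.02, 162 and 171 CPM in KO_sg4 and 195, 199 and 185 CPM in WT. The order was KD, KO, WT with no overlap, and the change was -0.67 ± 0.06 (adjusted p = 6.36e-08) in KD and -0.21 ± 0.05 (adjusted p = 0.00321) in KO. Tk1, the salvage enzyme thymidine kinase, had 99.9, 99.6 and 97.2 CPM in the KD libraries, 138, 132 and 134 CPM in KO_sg1, 112, 133 and 129 CPM in KO_sg4 and 144, 146 and 139.7 CPM in WT. The libraries kept the same order, with -0.54 ± 0.06 (adjusted p = 1.60e-06) in KD and -0.15 ± 0.05 (adjusted p = 0.0369) in KO. The Tk1 call in KO was lost in 13 of 23 alternative settings, and that of Rrm1 in 10. By guide, Tk1 was called in KO_sg4 (-0.21) and not in KO_sg1 (-0.09), and Tyms was called in KO_sg4 (-0.26) and in KO_sg1 (-0.15), the KO_sg1 call being lost in 13 of 23 alternative settings.

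**Figure D3:**
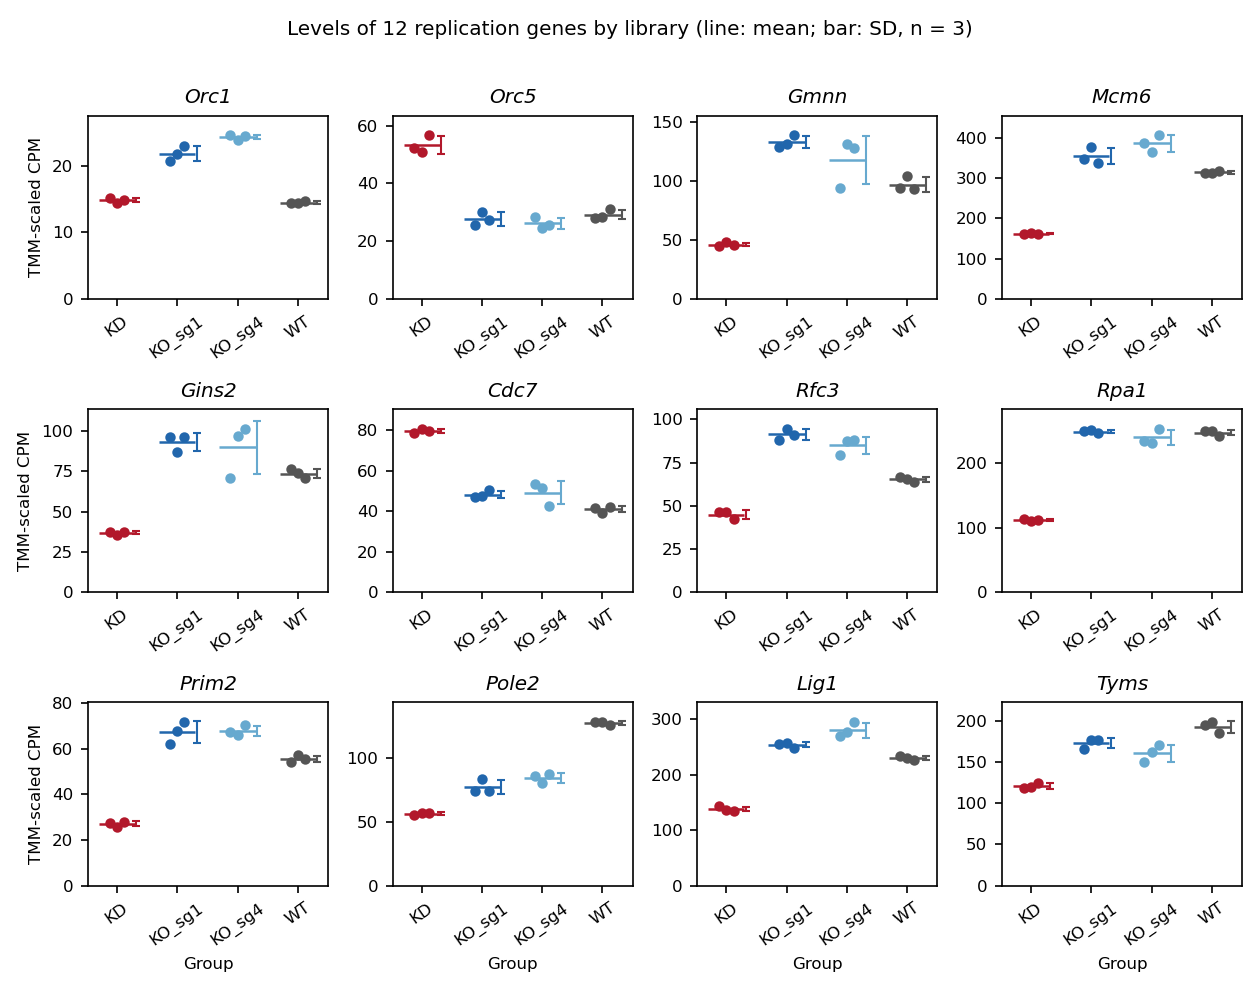
TMM-scaled CPM of 12 replication genes in every library of KD, KO_sg1, KO_sg4 and WT, with the mean as a line and the SD as a bar (n = 3). Orc5 and Cdc7 are highest in KD, Orc1 is highest in KO, Pole2 and Tyms are highest in WT, and the others are lowest in KD.

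Count ratios of partner genes within a library do not depend on how libraries are scaled, and they were examined for pairs chosen after the values had been seen, so no test is given. The ratio of Gmnn to Cdt1, the licensing inhibitor over its target, averaged 0.495 ± 0.0276 in KD, 1.10 ± 0.0417 in KO_sg1, 0.950 ± 0.110 in KO_sg4 and 0.797 ± 0.0492 in WT (SD, n = 3 each). The ratio of Cdc7 to Dbf4, the kinase over its activator, was 1.15 ± 0.00542 in KD, 0.425 ± 0.0209 in KO_sg1, 0.439 ± 0.0540 in KO_sg4 and 0.381 ± 0.0108 in WT. The KD libraries therefore stood at opposite ends for these pairs. Orc5 to Orc4 was 2.08 ± 0.0304 in KD, 0.795 ± 0.0204 in KO_sg1, 0.757 ± 0.0253 in KO_sg4 and 0.962 ± 0.0196 in WT. Prim2 to Prim1 was 0.427 ± 0.0151 in KD, 0.801 ± 0.0302 in KO_sg1, 0.783 ± 0.0561 in KO_sg4 and 0.761 ± 0.0263 in WT. The primase pair was thus shifted in KD, with KO and WT close. Pole2 to Pole was 0.612 ± 0.0252 in KD, 0.722 ± 0.0899 in KO_sg1, 0.747 ± 0.0737 in KO_sg4 and 1.36 ± 0.0347 in WT, which set WT apart from the other 3 groups. Pold2 to Pold1 was 0.381 ± 0.00328 in KD, 0.534 ± 0.0223 in KO_sg1, 0.591 ± 0.0358 in KO_sg4 and 0.659 ± 0.0215 in WT. Rrm2 to Rrm1 was the steadiest pair, at 1.04 ± 0.0453 in KD, 1.06 ± 0.00731 in KO_sg1, 1.01 ± 0.0278 in KO_sg4 and 1.09 ± 0.0178 in WT.

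**Figure D4:**
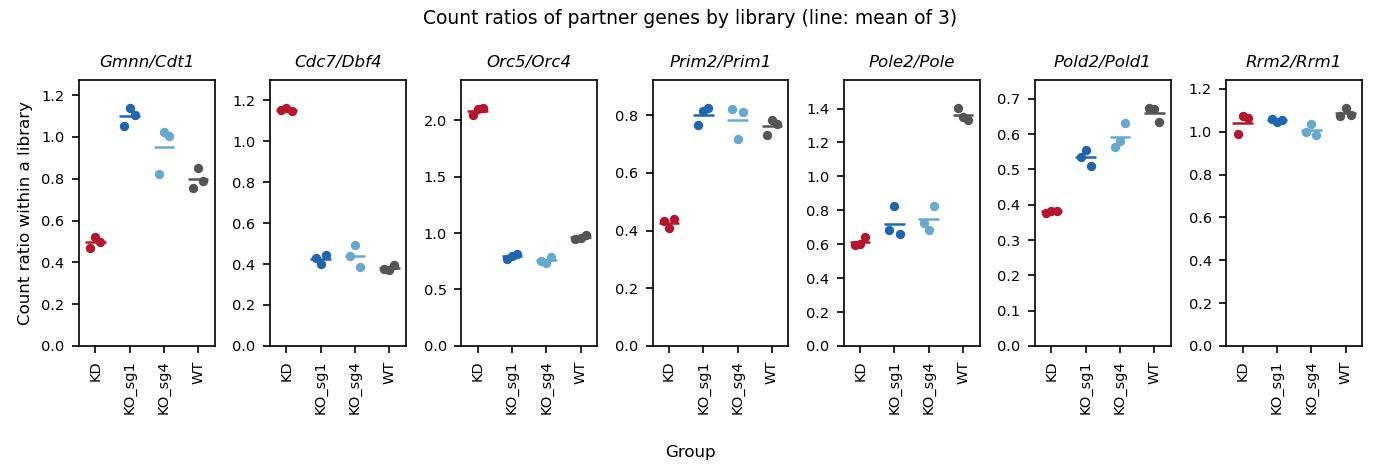
Count ratio of 7 pairs of partner genes in each library of KD, KO_sg1, KO_sg4 and WT, with the mean of 3 as a line. KD is lowest for Gmnn/Cdt1, Prim2/Prim1 and Pold2/Pold1 and highest for Cdc7/Dbf4 and Orc5/Orc4, WT is highest for Pole2/Pole, and Rrm2/Rrm1 is close to 1 in all groups.

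Per kilobase of the longest coding transcript, levels of the members spanned a wide range in every group. Pcna was the highest at 214 CPM per kb in KD, 446 in KO_sg1, 477 in KO_sg4 and 387 in WT. Orc1 was the lowest, at 4.92 CPM per kb in KD, 7.24 in KO_sg1, 8.08 in KO_sg4 and 4.81 in WT. The helicase ring is built from its subunits in equal numbers, yet its genes were not at equal levels. Mcm7 had 81.6 CPM per kb in KD, 158 in KO_sg1, 163 in KO_sg4 and 137 in WT, and Mcm4 had 26.1, 52.8, 61.0 and 43.2 CPM per kb in the same groups. The order Mcm7, Mcm3, Mcm5, Mcm2, Mcm6, Mcm4 held in all 4 groups, so that the change in KD left the ranking of the MCM genes as it was.

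The KD comparison moved with features of the genes, and these values stand beside the members' decrease. Among 10529 tested genes with a coding transcript, the 3480 whose protein holds a hydrophobic segment (a run of 19 residues with a mean hydropathy of at least 1.6) had a median log2 fold change of 0.86 in KD, and the 7049 without one had -0.32. Among these 7049, split into 5 bins by transcript length, the median was -0.71 in the bin of the shortest transcripts and -0.02 in that of the longest. Replication proteins are mostly soluble, and 40 of the members had no such segment. Their median in KD was -0.72 with 33 of 40 lower, over transcripts of 670 to 5346 bases. The 2855 genes without a segment and within the middle range of the members' lengths (1760 to 3575 bases) had a median of -0.37 with 58.2% lower. The members were not cut to that range, so these sets are not matched for length. In KO the medians of the same sets were 0.19 for the 40 members and 0.01 for those 2855 genes. With smooth trends of length and GC taken out of each library, 41 members were lower and 3 higher in KD, where 44.5% of all genes were lower and 36.2% higher, with a median 0.40 below that of all genes. With hydropathy taken out as well, 39 were lower and 6 higher, where 45.5% of all genes were lower and 31.4% higher, with a median 0.45 below that of all genes. Both fits were chosen after the data had been seen, and the part of the features in the members' change was not tested further.

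**Figure D5:**
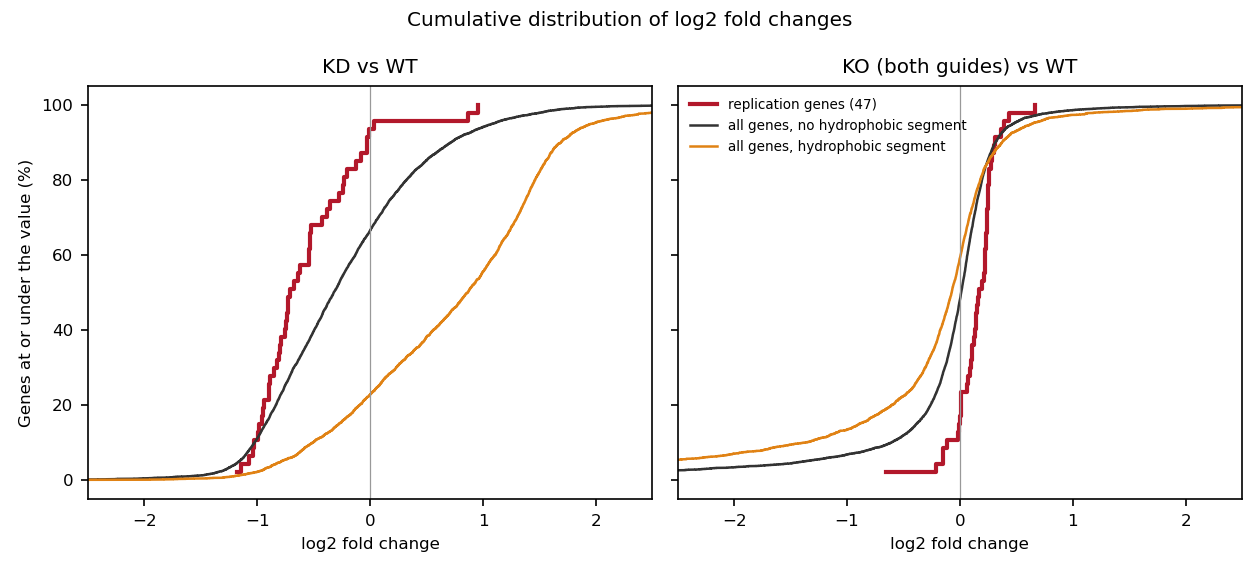
Cumulative share of genes by log2 fold change in KD against WT (left) and KO, both guides, against WT (right), for the 47 replication genes (red), all genes without a hydrophobic segment (black) and all genes with one (orange). In KD the red curve lies left of the black one, with medians of -0.71 and -0.32, and the orange curve lies to the right at 0.86; in KO the red curve lies slightly to the right, at 0.17 against 0.01 for black.

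Genes around the members in the cell cycle were read as counts, beside the same background. Of all genes, 40.4% were lower and 37.1% higher in KD, and 17.7% were higher and 23.8% lower in KO. Of 29 other replication fork factors, 15 were lower (51.7%) and 6 higher (20.7%) in KD (median -0.15). In KO 14 were higher (48.3%) and 3 lower (10.3%), with a median of 0.18. Tipin, a fork protection factor, changed by -1.20 in KD, and Recql4, a helicase of the RecQ family, by 0.48 in KO. All 10 genes of nascent chromatin and maintenance methylation were lower in KD (median -0.64), led by Nasp, a histone chaperone, at -1.11, and 3 were higher and 1 lower in KO. Of 19 other nucleotide enzymes, 17 were lower and 1 higher in KD (median -0.86), and 12 were higher and 2 lower in KO (median 0.21). Samhd1, which breaks down deoxynucleotides, was -1.03 in KO. Of 12 checkpoint genes, 7 were lower (58.3%) and 1 higher (8.33%) in KD (median -0.20). In KO 3 were higher (25%) and none lower (median 0.06). Of 30 genes of mitosis and G2/M, 20 were lower (66.7%) and 4 higher (13.3%) in KD (median -0.44). In KO 8 were higher (26.7%) and 2 lower (6.67%), with a median of 0.02. Cdk1, which drives entry into mitosis, was -0.88 in KD, while the proliferation marker Mki67 was not called in KD (-0.06) or KO (0.05).

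The regulators of the step from G1 to S phase did not move as one. Of 25 genes of G1/S control and the E2F family, 14 were lower (56%) and 4 higher (16%) in KD (median -0.24). Of all genes, 40.4% were lower and 37.1% higher in KD. In KO 7 of the 25 were higher (28%) and 5 lower (20%), with a median of 0.06. Of all genes, 17.7% were higher and 23.8% lower in KO. E2f1, the activating E2F, averaged 51.5 CPM in KD, 61.7 CPM in KO_sg1, 63.1 CPM in KO_sg4 and 52.3 CPM in WT, with 0.25 ± 0.06 (adjusted p = 0.00388) in KO and -0.02 ± 0.07 (adjusted p = 0.784) in KD. Ccna2, the S-phase cyclin, was -1.13 in KD. The cyclin E genes were lower in KD at -0.21 (Ccne1) and -0.49 (Ccne2) and not called in KO. Rb1, the brake on E2F, was -0.54 ± 0.14 (adjusted p = 0.00313) in KD and -0.28 ± 0.12 (adjusted p = 0.0843) in KO. Cdkn1a, a cyclin-dependent kinase inhibitor, averaged 64.8 CPM in KD, 59.4 CPM in KO_sg1, 16.8 CPM in KO_sg4 and 66.1 CPM in WT, with -1.98 ± 0.07 (adjusted p = 2.30e-11) in KO_sg4 and -0.15 ± 0.07 (adjusted p = 0.0817) in KO_sg1. Cdkn1b was 0.25 in KD and -0.41 in KO. Cdkn2a, whose p19 product these cells lack, averaged 34.2 CPM in KD, 54.3 CPM in KO_sg1, 65.8 CPM in KO_sg4 and 80.5 CPM in WT, with -1.24 ± 0.12 (adjusted p = 3.57e-07) in KD and -0.43 ± 0.10 (adjusted p = 0.00342) in KO.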

How the data were processed

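The authors deposited 1 table of estimated counts per gene symbol. Per the submitters' processing notes, the tools were Bowtie 1.0.1 and RSEM 1.2.12 and the build mm9; which annotation and strand setting were used is not given in the sources used here. Estimated counts, which share ambiguous reads among genes, were rounded to whole numbers. edgeR 4.0.16 (R 4.3.3) kept 12335 genes by filterByExpr (minimum count 10) and fitted 1 quasi-likelihood model to 12 libraries with 4 group means after TMM scaling (factors 0.880 to 1.14; common biological coefficient of variation 0.0768). Tests were two-sided. DESeq2 1.42.0, limma 3.58.1 and mgcv 1.9.3 served the alternatives. Scripts were tested on simulated data. Transcript length, GC and hydropathy came from GENCODE transcripts of GRCm38. A count of 0 allows up to 0.0833 to 0.147 CPM, counting error only. Replicate numbers were no block: deviations of same-numbered libraries correlated at -0.450 to 0.151 over 18 pairs. Every-library values are given, per role, for the called member with the largest change in KO, KD and between the guides, and for the 6 highest and 6 lowest called members in KD and KO; at most 3 called genes per other list are named, plus 8 fixed regulators. The members and lists were chosen with earlier results of these data known.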

Additional observations from a re-analysis of the deposited data

Results flagged for a closer look

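Members that differed between the KO guides in a direct test are given here as values. Mcm2 was higher in KO_sg4 than in KO_sg1 by 0.188 on the log2 scale (edgeR adjusted p = 0.039), Lig1 by 0.143 (adjusted p = 0.042), and Pold1 fell by 0.223 in KO_sg4 (adjusted p = 0.025). The Lig1 libraries of the guides did not overlap, while those of Mcm2 and Pold1 did. Of 23 alternative settings, Mcm2 lost its call in 15, Lig1 in 13 and Pold1 in 7, among them the fit with a replicate block for all of them. Groups of 3 libraries were not tested for outlying samples.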

How the results depend on the processing

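With any library left out, KD kept 38 to 40 members lower and 2 higher. All genes then gave 37.3% to 41.3% lower and 34% to 39.5% higher. KO kept 21 to 31 higher and 2 to 4 lower, beside 12.7% to 23.7% and 19.5% to 27.6% of all genes. KO_sg1 had 17 to 29 higher and 1 to 2 lower, beside 12% to 22.7% and 17.9% to 25.5% of all genes. KO_sg4 had 20 to 28 higher and 2 to 4 lower, beside 13.2% to 20.4% and 18.6% to 23.4% of all genes. KD against KO stayed at 45 lower and 2 higher in each of these fits, beside 37.3% to 40.9% and 41.7% to 45.4% of all genes. KO_sg4 against KO_sg1 ranged over 0 to 8 higher and 0 to 7 lower, beside 8.91% to 21.5% and 9.16% to 20.9% of all genes. The highest counts came without KO_sg4 replicate 2, and without KO_sg1 replicate 2 there were 6 higher and 2 lower; 0 were higher without any 1 of the 3 WT libraries, KD replicate 2 or 3, KO_sg1 replicate 1 or 3 or KO_sg4 replicate 3, and 0 lower without KO_sg1 replicate 3 or KO_sg4 replicate 1. KO_sg4 had 2 lower without WT replicate 1 or 2, and KO_sg1 had 1 lower without any 1 of the KD or KO_sg1 libraries or WT replicate 1 or 2. The members' median between the guides ran over -0.0044 to 0.038, the lowest without KO_sg4 replicate 3. For KO_sg1, 1 member was lower with DESeq2 size factors, no filter, DESeq2 itself, the replicate block or the small and ribosomal RNA genes left out. In these fits 14.1% to 20.9% of all genes were lower. With either trend removed 4 members were lower, where 28.5% or 28.6% of all genes were. KO_sg4 had 2 lower when only the groups compared were fitted, where 17.9% of all genes were lower. With either trend removed, KO had 5 lower, where 30.4% or 31.2% of all genes were lower. Under library totals KO_sg1 had 10 higher (10.7% of all genes) and KD had 6 higher (45.3% of all genes). KO_sg4 against KO_sg1 then had 17 higher and 0 lower (23% and 8.54% of all genes). KD also had 6 higher with length, GC and hydropathy removed (31.4% of all genes). KO_sg4 against KO_sg1 gave 0 higher and 2 lower with DESeq2 size factors (12.2% and 15% of all genes) and 0 higher with no filter (8.91%). With DESeq2 it gave 1 higher and 3 lower (8.85% and 11.2%). It gave 0 and 0 with only the groups compared (6.75% and 7.01%) and 2 lower without small and ribosomal RNA genes (14.6%). With length and GC removed there were 10 higher and 2 lower (18.1% and 14.4%), and with hydropathy removed too 7 and 2 (16.6% and 14.7%). The replicate block gave 24 higher and 2 lower in KO, where 15.6% of all genes were higher and 21.8% lower. It gave 21 and 1 in KO_sg1 (14.5% and 20% of all genes) and 22 and 4 in KO_sg4 (15.6% and 20.3%). In KD it gave 39 lower and 2 higher (39.6% and 36.2%), and between the guides 0 and 0 (10.9% and 11.2%). Called values that reversed were Prim1 in KD against WT (0.019 under library totals, 0.16 and 0.24 with the trends removed) and against KO (0.0089 and 0.11 with the trends removed), Mcm10 in KD against KO (0.058 under library totals) and Gins3 in KD against KO (0.066 with hydropathy removed). The cause was not tested, and both trend fits were added after the data had been seen.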

Other observations

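Pole2, the member with the largest decrease, was looked up beside its RefSeq neighbours after its values had been seen, and these are values without an explanation. Klhdc2, which encodes a ubiquitin ligase subunit that binds substrates, averaged 6.59 CPM in KD, 97.1 CPM in KO_sg1, 108 CPM in KO_sg4 and 17.9 CPM in WT, with a log2 fold change in KO of 2.52 (edgeR adjusted p = 3.36e-13) and in KD of -1.44. Klhdc1, which overlaps Pole2, averaged 7.33 CPM in KD, 5.75 CPM in KO_sg1, 6.27 CPM in KO_sg4 and 10.98 CPM in WT, with -0.86 in KO and -0.58 in KD. Mgat2, a glycosyltransferase gene, changed by -0.31 in KO and 0.58 in KD. Nemf was not called in KO (-0.01, adjusted p = 0.892) and was -0.56 in KD. Neighbours of Pole2 thus moved in both directions in KO.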
